A study of Rattus norvegicus with 13 samples.

Results

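DNA replication and cell division genes were read in the left ventricle of pregnant rats, as a list of 37 genes that spans the cell cycle from G1 entry to mitotic exit. Each gene was read by the brightest of its probe sets, taken by mean log2 signal over all arrays from the probe sets whose annotation names that gene alone. By this rule 36 of the 37 genes were measured, of 14217 genes that the arrays measured in the same way. Rrm2, a subunit of ribonucleotide reductase, was read only by probe sets that name 2 genes, so no value is given for it.

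The RNA came from pregnant female Sprague Dawley rats, with 1 Affymetrix Rat Genome 230 2.0 array for each sample, and comprised 5 control arrays, 4 methionine-fed arrays (Met-fed) and 4 L-NAME-fed arrays (L-NAME). Methionine was given at 9 g/L in the drinking water to raise homocysteine, and L-NAME, an inhibitor of nitric oxide synthases, at 1 g/L, over gestational days 1 to 20 in each case, while control rats drank water without either agent. All rats were pregnant and on standard chow, and hearts were taken on day 20 or 21. The methods describe rats of later pregnancies, methionine from the first day of the first pregnancy until death, and 4 control arrays. The labels give days 1 to 20, 5 control arrays and no parity, so the length of exposure is not settled. All 5 control arrays were used. No age is given in the labels, and a nonpregnant group was not analysed here, so no value below measures the effect of pregnancy itself.

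Cells enter the cycle when D-type cyclins activate Cdk4 and its relatives, which release E2F factors, and E2F then switches on the genes that license origins and copy DNA. Later in the cycle the MuvB complex, bound with B-Myb and FoxM1, drives the mitotic genes, and many of these carry a CHR element and CCAAT boxes in their promoters. Adult cardiomyocytes have largely left the cell cycle, so transcripts of mitosis are scarce in adult ventricle and come mostly from its other cells. The inhibitors Cdkn1a (p21) and Cdkn1b (p27) hold cyclin-dependent kinases in check and are well expressed in adult heart.

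Promoters are shown for 7 members because the mitotic and the replication genes differed in their CHR elements and E2F sites. RefSeq promoters of the GRCr8 rat assembly, 250 bases before to 50 bases after each gene's start, were found for 30 of the 36 measured genes. Each is printed 5′ to 3′ on the gene's own strand, with capitals for a CCAAT box, for the letters TTTGAA of a CHR element, or for an E2F site (TTTCGCGC, TTTGGCGC, TTTCCCGC, TTTGCCGC, TTTGGCGG or TTTCCCGG), each searched on both strands. The mitotic genes Birc5, Cks2, Top2a, Cdc20 and Mki67, the replication gene Mcm6 and the inhibitor Cdkn1a are given, at chr10:103571896-103572195 (plus strand), chr17:13727470-13727769 (minus strand), chr10:84473044-84473343 (minus strand), chr5:137255750-137256049 (minus strand), chr1:199952544-199952843 (minus strand), chr13:42404303-42404602 (minus strand) and chr20:7150682-7150981 (plus strand).
Birc5: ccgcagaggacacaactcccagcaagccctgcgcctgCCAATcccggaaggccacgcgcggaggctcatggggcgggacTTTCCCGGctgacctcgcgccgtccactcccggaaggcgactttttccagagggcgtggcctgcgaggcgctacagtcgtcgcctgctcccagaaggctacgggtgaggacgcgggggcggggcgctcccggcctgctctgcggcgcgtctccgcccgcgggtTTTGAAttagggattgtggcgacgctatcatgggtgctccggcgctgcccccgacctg
Cks2: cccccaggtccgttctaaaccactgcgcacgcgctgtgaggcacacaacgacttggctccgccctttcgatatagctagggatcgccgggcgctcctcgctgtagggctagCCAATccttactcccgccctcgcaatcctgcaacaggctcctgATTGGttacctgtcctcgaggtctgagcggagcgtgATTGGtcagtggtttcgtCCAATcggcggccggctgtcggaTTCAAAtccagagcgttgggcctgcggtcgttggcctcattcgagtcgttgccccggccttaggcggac
Top2a: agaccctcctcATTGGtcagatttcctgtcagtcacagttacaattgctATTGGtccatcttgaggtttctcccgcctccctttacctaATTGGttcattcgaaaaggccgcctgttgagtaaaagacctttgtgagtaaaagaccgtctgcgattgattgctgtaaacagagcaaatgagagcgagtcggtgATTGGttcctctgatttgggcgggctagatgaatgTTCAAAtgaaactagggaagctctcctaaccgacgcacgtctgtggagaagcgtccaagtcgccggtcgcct
Cdc20: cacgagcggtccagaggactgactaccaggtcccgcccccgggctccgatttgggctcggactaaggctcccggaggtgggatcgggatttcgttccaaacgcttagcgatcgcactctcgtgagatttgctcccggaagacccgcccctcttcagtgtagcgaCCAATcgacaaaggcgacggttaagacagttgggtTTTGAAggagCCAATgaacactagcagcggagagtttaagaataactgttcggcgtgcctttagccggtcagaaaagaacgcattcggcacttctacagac
Mki67: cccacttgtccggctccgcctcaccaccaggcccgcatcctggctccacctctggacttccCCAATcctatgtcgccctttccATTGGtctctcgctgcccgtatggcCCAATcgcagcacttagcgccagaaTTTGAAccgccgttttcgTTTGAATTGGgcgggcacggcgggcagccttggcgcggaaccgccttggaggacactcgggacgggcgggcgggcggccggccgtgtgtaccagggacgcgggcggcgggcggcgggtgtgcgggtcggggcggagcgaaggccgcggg
Mcm6: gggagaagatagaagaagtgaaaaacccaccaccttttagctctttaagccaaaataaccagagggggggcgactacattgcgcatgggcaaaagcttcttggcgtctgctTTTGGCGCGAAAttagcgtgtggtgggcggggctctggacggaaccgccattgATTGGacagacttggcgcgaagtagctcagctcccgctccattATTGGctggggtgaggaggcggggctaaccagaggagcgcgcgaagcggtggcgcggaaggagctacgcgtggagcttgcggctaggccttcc
Cdkn1a: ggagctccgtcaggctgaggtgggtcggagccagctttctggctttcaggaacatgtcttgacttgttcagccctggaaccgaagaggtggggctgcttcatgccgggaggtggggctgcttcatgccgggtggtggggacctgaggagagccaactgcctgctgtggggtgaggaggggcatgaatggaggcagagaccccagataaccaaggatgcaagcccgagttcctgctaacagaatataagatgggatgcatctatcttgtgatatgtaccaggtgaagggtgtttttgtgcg

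The CHR element lay 8 bases before the start in Birc5, 19 bases before it in Cks2, 22 bases before it in Top2a and 51 bases before it in Cdc20. Mki67 carried 2 CHR elements, 117 and 99 bases before its start, and the later one overlaps a CCAAT box by 1 base, so the capitals run on there. In Mcm6, which also held 2 CCAAT boxes, a pair of E2F sites on opposite strands overlap 139 and 135 bases before the start. Cdkn1a held none of the 3 elements. Among the 12 mitotic members with a promoter, 10 (83.3%) held a CHR element, against 12.7% of 13242 promoters of genes on the array and 18.3% of all 33469 promoters. Both a CHR element and a CCAAT box were found in 9 of these 12 (75%), against 5.12% of genes on the array and 7.41% of all promoters. Of the 12 DNA replication members with a promoter, 1 held a CHR element and 8 (66.7%) held an E2F site, against 5.75% of genes on the array. An E2F site was also found in 2 of the 12 mitotic members, Birc5 among them. CCAAT boxes were common to both sets, in 10 mitotic (83.3%) and 8 replication members (66.7%), against 36.8% of genes on the array. The 5 mitotic promoters shown are of genes that passed the test in L-NAME hearts, as given below. Cdk1, Ccnb2, Plk1 and Cenpf, which did not pass it, also held both elements, while Ccnb1 held only CCAAT boxes. Neither element was found at the annotated start used for Aurka, and whether transcription begins there in the heart was not tested. Bub1b, which passed, held a CHR element and no CCAAT box. A match in this window is a description and not a shown binding site.

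The L-NAME arrays stood apart from the others over the whole array. Their median signal was 34.2 to 36.9, against 25.7 to 27.2 on control and 25.8 to 29.2 on Met-fed arrays, although the trimmed mean was the same on all 13 arrays. The beta-actin ratio sets probes at the 3′ end of that transcript against those at its 5′ end and moves with RNA integrity. On the log2 scale it was 2.32 to 2.70 on L-NAME, 3.31 to 3.67 on control and 3.32 to 3.71 on Met-fed arrays. The mean log2 signal of 18 spike-in control probe sets was 9.80 to 9.97 on L-NAME, 10.16 to 10.41 on control and 10.02 to 10.27 on Met-fed arrays. Markers of ventricular cardiomyocytes were all present, and their summed signal was 27460 to 29820 in control, 23594 to 31473 in Met-fed and 17999 to 20996 in L-NAME hearts, with 7 of 8 measured markers lower in L-NAME, 3 of 8 after quantile normalization and 8 of 8 after array median centring. Of 6 endothelial markers 4 were lower in L-NAME, and 3 and 6 in those scalings, in the same order. Of 7 fibroblast markers 2 were lower, with 2 higher and 2 lower after quantile normalization and 4 lower after centring. Of 8 leukocyte markers 4 were lower and 1 higher, and 3 and 5 were lower in the other scalings. Of the 4 measured erythroid markers 1 was higher and 1 lower, with 2 higher after quantile normalization and 1 lower after centring, none of 4 atrial markers passed the test, and no marker of any list was at 0. The part of these differences in the results below was not tested, and with no batch in the labels the treatment and a technical difference between the arrays cannot be told apart.

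Most mitotic transcripts were dim. By the mean over all 13 arrays, 13 of the 15 mitotic members fell short of the array-wide median (a linear signal of 29.2 over all probe sets), among them all 7 mitotic cyclins and kinases. Only Mki67, the antigen that marks cycling cells, and Cks2, a small subunit of mitotic kinases, lay above it. Against the median of each group's own arrays 14 of the 15 were under it in control and in Met-fed hearts, with Cks2 above, and 12 in L-NAME hearts, with Mki67, Top2a and Cks2 above. By contrast both CDK inhibitors, 5 of 6 G1 cyclins and kinases, 5 of 6 MCM helicase genes, 2 of 3 genes of nucleotide supply and 2 of 4 genes of the polymerase alpha-primase and clamp role lay above the array-wide median, so that 18 of 36 members fell on each side.

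Few members were within the background in the strict sense. The highest of 27 bacterial control probe sets, which rat RNA should not light up, had log2 signals of 1.28 to 2.31 on the 13 arrays. The kinase Bub1b, which acts in the spindle checkpoint, was at or under that level on 8 of 13 arrays and on at least 50% of the control and of the Met-fed arrays. Plk1, the polo kinase, and Cenpf, a kinetochore protein, were at or under it on 2 arrays each, and no other member reached it. With a wider limit, the median of the bacterial controls plus 3 SD (log2 2.95 to 5.91), 11 members were near background in at least 1 group. These were Ccnb1, Ccna2, Cdk1, Plk1, Aurkb, Cdc20, Bub1b, Cenpf, Birc5, Ccne1 and Mcm3, of which Ccna2, Plk1, Aurkb, Bub1b and Cenpf were near it in all groups.

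**Figure D1:**
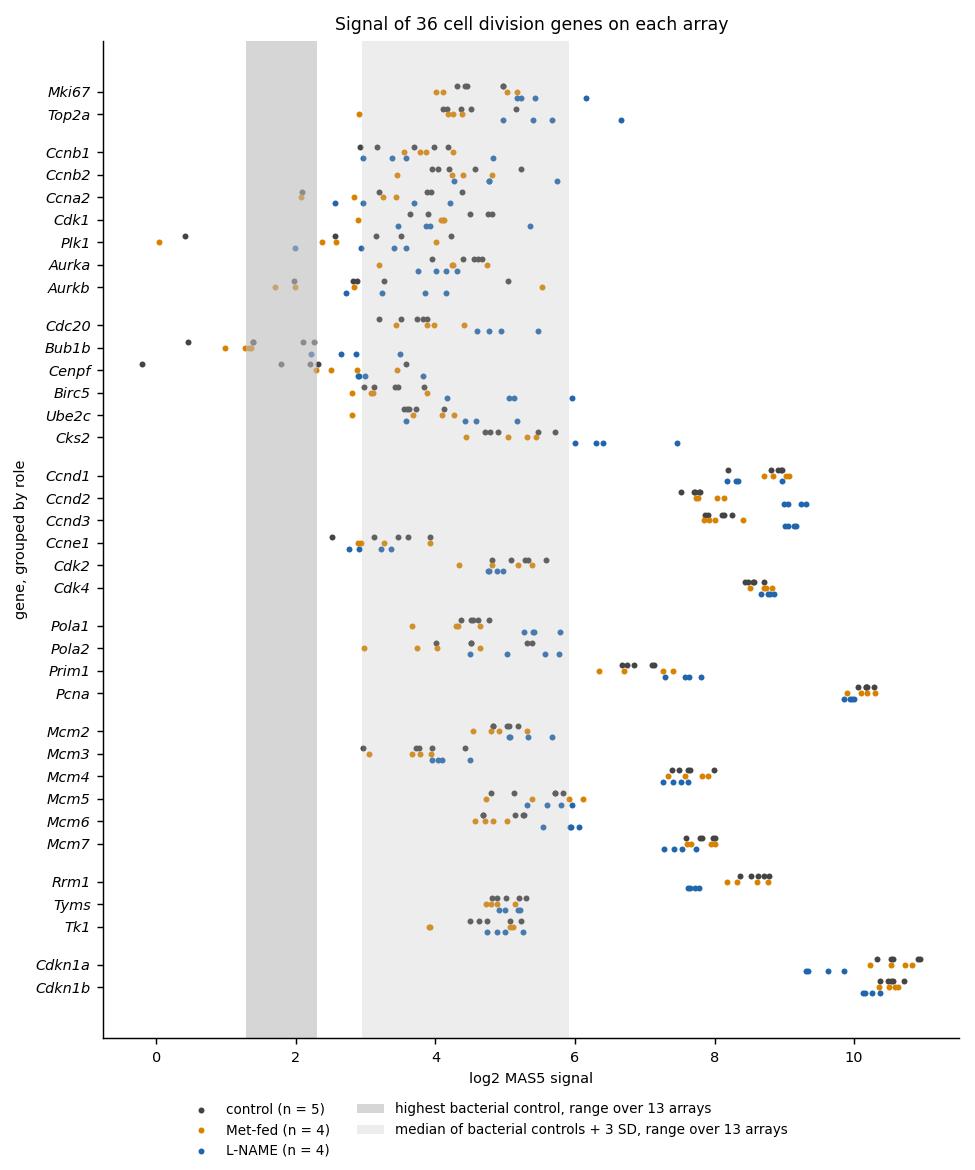
Log2 MAS5 signal (horizontal axis) of the 36 measured genes (vertical axis, grouped by role), with 1 point per array, and shaded bands for the range over the 13 arrays of the highest bacterial control (log2 1.28 to 2.31, darker) and of the median of the bacterial controls plus 3 SD (log2 2.95 to 5.91, lighter). Most mitotic genes lie in the lighter band, while Pcna, Cdkn1a and Cdkn1b lie well to the right of it in every group.

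In Met-fed hearts none of the 36 members differed from control after adjustment. The change was below 0 for 27 members and above 0 for 9, with a median log2 change of -0.09, beside 0.00 over all 31042 probe sets. With limma and Benjamini-Hochberg adjustment 0 of 36 members passed 0.05, where 0% of all probe sets did, and the smallest adjusted p of a member was 0.401. At an unadjusted p under 0.05 there was 1 member (2.78%), Pola2, against 10.7% of all probe sets. The methods' t-test called 0 members, both before adjustment (p under 0.05) and after it. No member had groups without overlap, against 2.89% of all probe sets.

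Pola2, the regulatory subunit of DNA polymerase alpha, had log2 signals of 5.38, 5.31, 4.51, 4.01 and 4.51 on control, 3.74, 4.64, 4.03 and 2.98 on Met-fed and 5.78, 4.50, 5.03 and 5.56 on L-NAME arrays. Met-fed replicates 1 and 4 lay below all control arrays and replicates 2 and 3 lay within their range, so the groups overlapped. Its log2 change in Met-fed hearts was -0.90 ± 0.36 (adjusted p = 0.401), with an unadjusted p of 0.0257 and an exact permutation p of 0.0794 (2-sided). The study lists this gene as significantly lower in Met-fed hearts from the same series of arrays, so its direction here is no independent evidence. Pola1, the catalytic subunit of the same enzyme, changed by -0.33 ± 0.21, which did not pass the test either. Of the other members with the smallest p, the G1 cyclin Ccnd2 had a change of 0.21 ± 0.11 and its kinase Cdk4 one of 0.15 ± 0.09, and neither passed the test.

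The precision of this comparison differed with brightness. Of the 18 members above the median signal, 13 had a 95% confidence interval that lay within a change of 1.5-fold in either direction, and of the 18 members under it 0 did. For the cell division genes as for the rest, a p that misses the threshold does not show that the groups were alike, and for the dim genes the intervals reached past a 1.5-fold change.

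**Figure D2:**
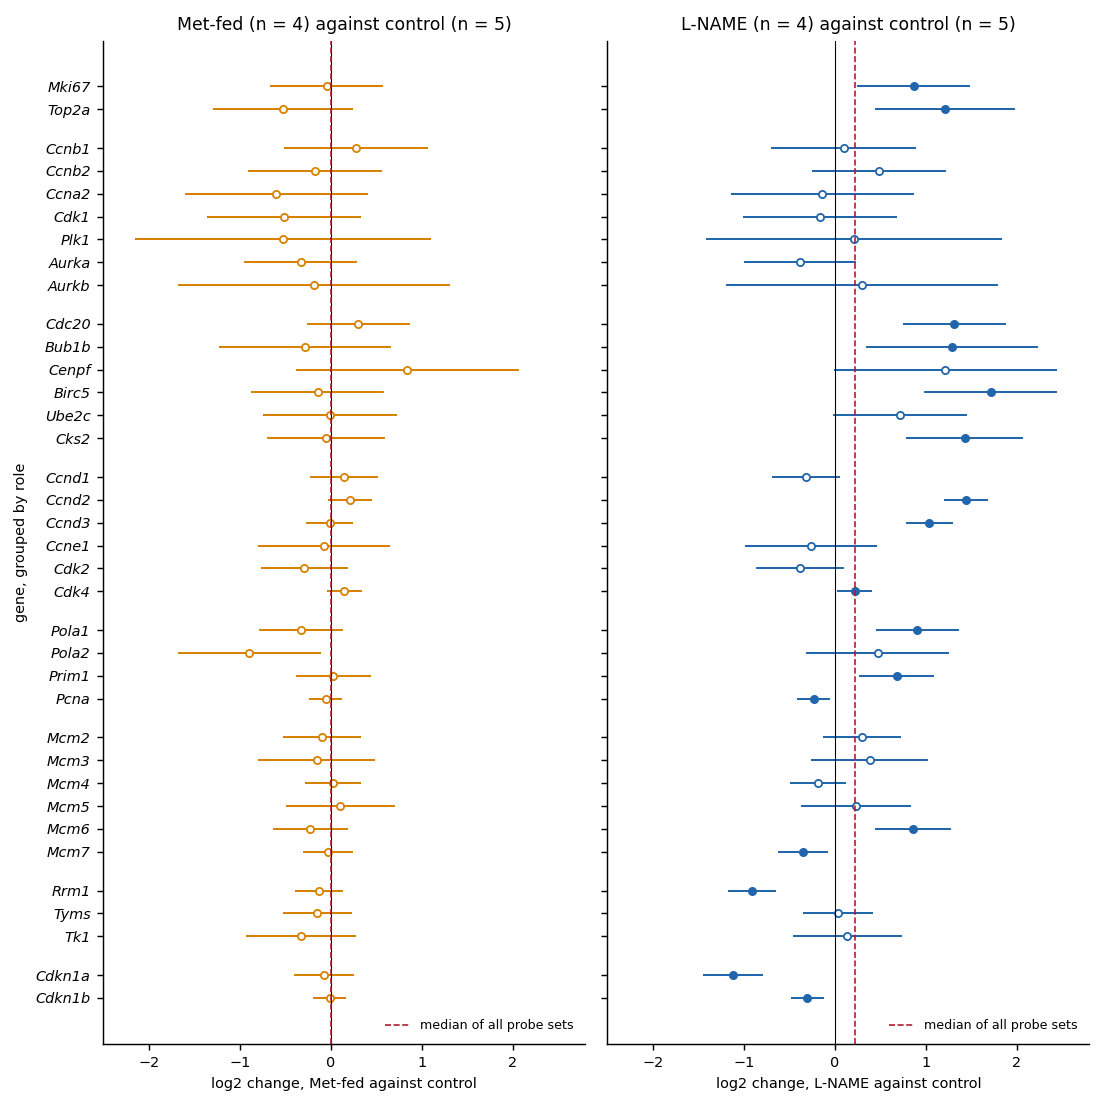
Log2 change against control with 95% confidence interval (horizontal axes) for the 36 measured genes (vertical axis, grouped by role) in Met-fed (left) and L-NAME hearts (right), with filled points for an adjusted p under 0.05 and a dashed line at the median of all probe sets. No gene is filled on the left, and 12 genes are filled above 0 and 5 below 0 on the right.

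In L-NAME hearts 17 of 36 members (47.2%) differed from control, close to the 45.7% of all probe sets that did. Of these, 12 were higher (33.3% of members, against 28.7% of all probe sets) and 5 lower (13.9%, against 17%). The higher members were the mitotic genes Birc5, Cks2, Cdc20, Bub1b, Top2a and Mki67, the G1 genes Ccnd2, Ccnd3 and Cdk4, and the replication genes Pola1, Prim1 and Mcm6. The lower members were the inhibitors Cdkn1a and Cdkn1b and the replication genes Rrm1, Mcm7 and Pcna. The median log2 change was 0.27, beside 0.22 over all probe sets, and 13 members (36.1%) had groups without overlap, against 40.3% of all probe sets. As a share the list did not stand out from the array. The split of 12 higher to 5 lower depended on scaling, being 7 to 6 after quantile normalization and 5 to 9 after array median centring, where the median of all probe sets moved from 0.22 to -0.01 and -0.21. In bulk tissue, fewer cells of a type and less RNA per cell cannot be told apart in any of these values.

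All mitotic members that passed the test were higher. Of the 15, 6 (40%) were higher, against 28.7% of all probe sets, and 0 lower. The median log2 change was 0.72, or 0.23 after quantile normalization and 0.29 after median centring, and 3 members had values below 0. The 6 called genes were the 2 general markers of cycling cells and 4 of the 6 genes listed under spindle checkpoint and mitotic exit. Cks2 was listed there although it is a subunit of mitotic kinases. None of the 7 mitotic cyclins and kinases (Ccnb1, Ccnb2, Ccna2, Cdk1, Plk1, Aurka and Aurkb) passed the test, with changes from -0.38 to 0.49. After quantile normalization or median centring 3 of the 15 mitotic members were higher (Birc5, Cks2 and Cdc20) and 1 lower, the spindle kinase Aurka.

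Birc5 (survivin), a subunit of the chromosomal passenger complex that also inhibits apoptosis, had log2 signals of 2.98, 3.12, 3.42, 3.83 and 3.46 on control, 3.07, 3.88, 2.81 and 3.10 on Met-fed and 5.05, 4.17, 5.12 and 5.96 on L-NAME arrays. All L-NAME arrays lay above all control and Met-fed arrays. The log2 change against control was 1.71 ± 0.34 (adjusted p = 0.00057). Cks2 had log2 signals of 5.47, 4.89, 4.78, 5.71 and 4.71 on control, 4.44, 5.04, 5.44 and 5.32 on Met-fed and 6.31, 6.00, 6.40 and 7.47 on L-NAME arrays. The L-NAME arrays again lay above every other array, by a log2 change of 1.43 ± 0.30 (adjusted p = 0.000877) against control. Cdc20, which activates the anaphase-promoting complex, had log2 signals of 3.88, 3.82, 3.74, 3.50 and 3.19 on control, 3.98, 3.88, 3.44 and 4.41 on Met-fed and 4.59, 4.77, 4.94 and 5.47 on L-NAME arrays. No L-NAME array overlapped another group, and the log2 change was 1.32 ± 0.26 (adjusted p = 0.000591). These 3 genes passed the test in both other scalings and without any single array.

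Top2a, the topoisomerase that untangles sister chromosomes, had log2 signals of 4.37, 4.17, 4.11, 5.15 and 4.52 on control, 2.91, 4.38, 4.25 and 4.19 on Met-fed and 5.67, 4.97, 5.40 and 6.66 on L-NAME arrays. The lowest L-NAME array lay under the highest control array, and the log2 change was 1.21 ± 0.36 (adjusted p = 0.0107). Mki67 had log2 signals of 4.98, 4.45, 4.42, 4.31 and 4.97 on control, 4.01, 4.10, 5.17 and 5.03 on Met-fed and 5.43, 5.17, 5.22 and 6.16 on L-NAME arrays. Its L-NAME arrays lay above every control array and overlapped the Met-fed ones, with a log2 change of 0.87 ± 0.29 (adjusted p = 0.0208). Bub1b had log2 signals of 1.38, 0.46, 2.11, 2.26 and 1.39 on control, 1.27, 1.36, 1.33 and 0.98 on Met-fed and 2.22, 2.87, 2.65 and 3.50 on L-NAME arrays. The lowest L-NAME array lay within the control range, and the log2 change was 1.29 ± 0.44 (adjusted p = 0.0244), with 4 of 5 control arrays at or under the highest bacterial control. These 3 genes did not pass the test after quantile normalization or median centring, nor without L-NAME replicate 4, where their adjusted p was 0.0515, 0.0911 and 0.0944 in the same order. Bub1b was also lost without control replicate 2 or L-NAME replicate 2.

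Ube2c, the ubiquitin-conjugating enzyme of mitotic exit, and Cenpf had log2 changes of 0.72 ± 0.34 and 1.21 ± 0.57 (adjusted p = 0.101 and 0.0967) and did not pass the test. Ccnb2, a B-type cyclin and the brightest probe set of its role, had log2 signals of 5.22, 4.04, 4.20, 4.57 and 3.95 on control, 3.45, 4.39, 4.24 and 4.81 on Met-fed and 4.27, 4.77, 4.77 and 5.75 on L-NAME arrays. The groups overlapped, with L-NAME replicate 4 the highest array. Cdk1, the kinase that drives entry into mitosis, had a change of -0.16 ± 0.39 with overlapping groups.

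**Figure D3:**
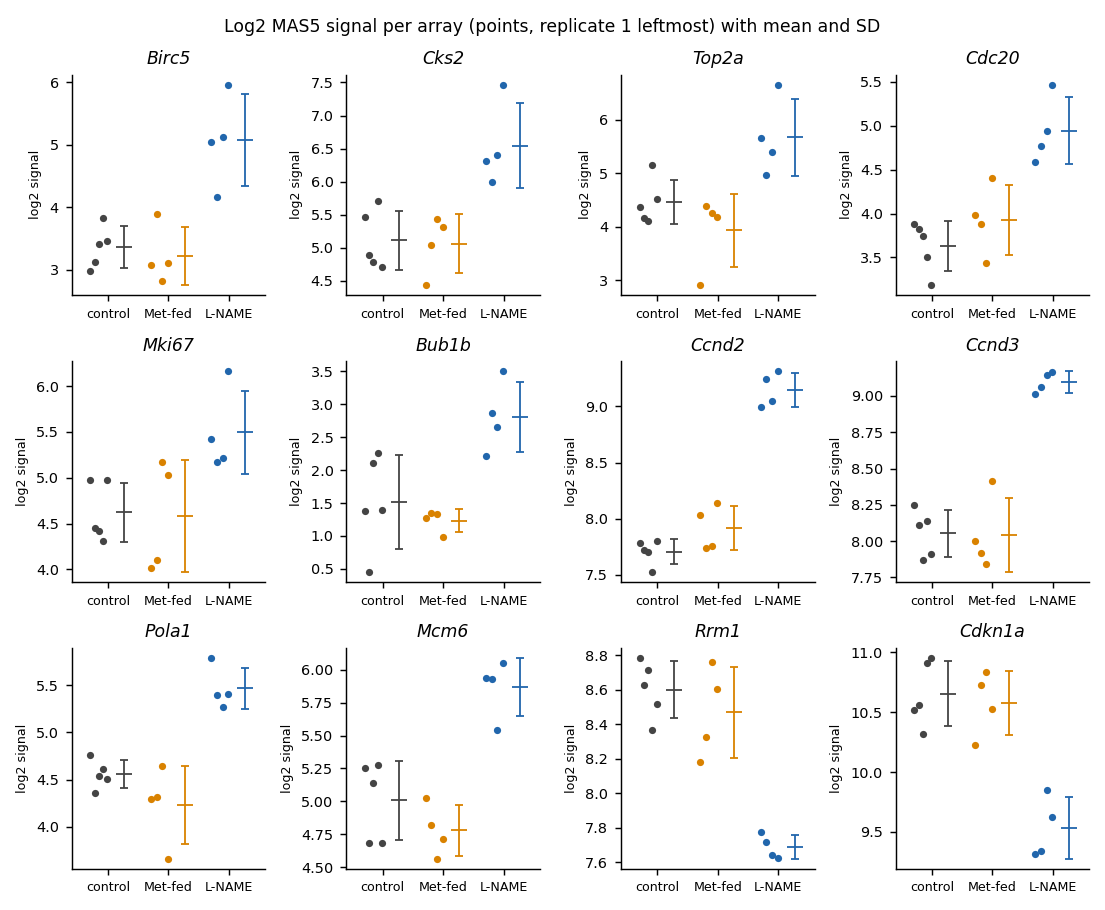
Log2 MAS5 signal (vertical axes, each with its own range) of 12 genes in control (n = 5), Met-fed (n = 4) and L-NAME hearts (n = 4, horizontal axes), with 1 point per array and the mean with SD beside them. L-NAME arrays lie above all control arrays for Birc5, Cks2, Cdc20, Mki67, Ccnd2, Ccnd3, Pola1 and Mcm6 and below all of them for Rrm1 and Cdkn1a.

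L-NAME replicate 4 was high across the mitotic genes. It was the highest L-NAME array for 14 of the 15 mitotic members, while it was the highest for 24.7% of all probe sets. The median difference of the 15 genes from their control means was 1.45 on this array, and 0.70, 0.37 and 0.64 on L-NAME replicates 1, 2 and 3. On the 13 replication members the same array had a median of 0.17 and was the highest in 2. The median signal and the beta-actin ratio of this array (35.8 and log2 2.41) were within the range of the other L-NAME arrays. Its highest bacterial control signal was 4.91 against 2.51 to 3.57 on them, and 75.2% of its probe sets exceeded that level against 80.9 to 83.6%, while its summed fibroblast signal was 10042 against 7870 to 7941 on them and its summed leukocyte signal was 3208 against 2445 to 2915. The part of those cells and of the background in the mitotic signal was not tested. Without this array 13 members passed the test (8 higher, 5 lower), and Mki67, Top2a, Bub1b, Cdk4 and Mcm7 did not, while Ccnd1 was gained as lower (-0.49, adjusted p = 0.019 by limma).

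Mitotic genes also varied together within groups. Over the 13 arrays, after each group's mean was taken off, the median Pearson correlation over the 105 pairs of mitotic members was 0.39 and 89 pairs were above 0, while over the 78 pairs of replication members it was 0.04. Without L-NAME replicate 4 the mitotic median was 0.31 with 77 pairs above 0. Over all pairs of probe sets the median was 0.005. The pairs share arrays and genes, so these values are a description with no test.

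**Figure D4:**
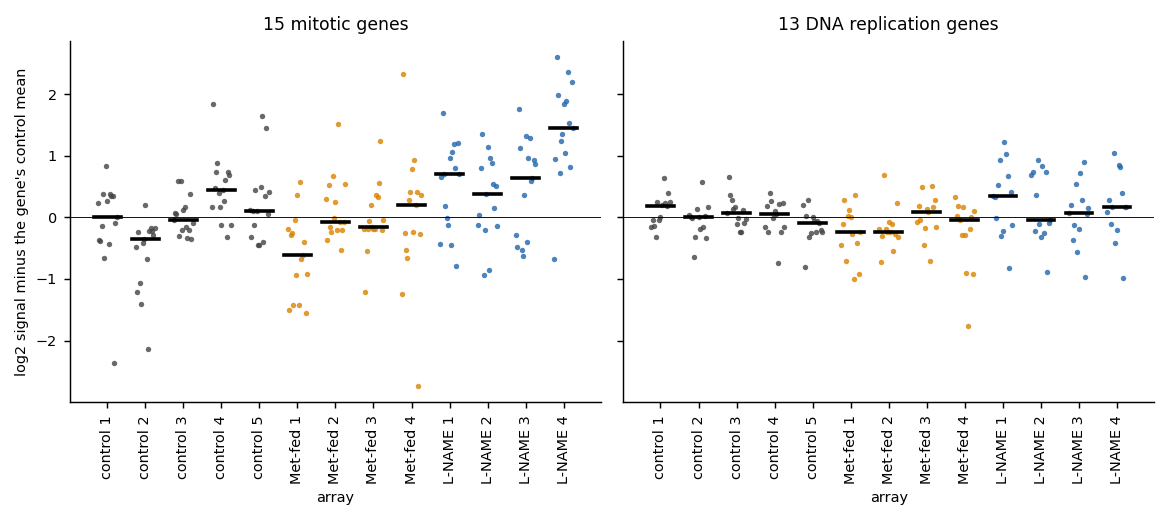
Log2 signal minus the gene's control mean (vertical axis) on each of the 13 arrays (horizontal axis) for the 15 mitotic genes (left) and the 13 DNA replication genes (right), with 1 point per gene and a bar at the median. The mitotic median is 1.45 on L-NAME replicate 4 and -0.61 on Met-fed replicate 1, while the replication medians stay between -0.24 and 0.35 on all arrays.

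In the G1 group 3 of 6 members were higher (50%, against 28.7% of all probe sets) and 0 lower (against 17%). After either other scaling only Ccnd2 and Ccnd3 were higher while Cdk2 was lower. Ccnd2, a D-type cyclin, had log2 signals of 7.78, 7.72, 7.70, 7.53 and 7.80 on control, 8.03, 7.74, 7.76 and 8.14 on Met-fed and 9.00, 9.24, 9.05 and 9.31 on L-NAME arrays. The L-NAME arrays lay far above both other groups, with a log2 change of 1.44 ± 0.11 (adjusted p = 4.46e-08). Ccnd3, its close relative, had log2 signals of 8.25, 8.11, 7.87, 8.14 and 7.91 on control, 7.999, 7.92, 7.84 and 8.41 on Met-fed and 9.01, 9.06, 9.14 and 9.17 on L-NAME arrays. All L-NAME arrays lay above all others, by a log2 change of 1.04 ± 0.12 (adjusted p = 2.17e-06) against control. Both cyclins passed the test in both other scalings and without any single array. They also passed with the beta-actin ratio or the spike-in signal as a covariate. Neither covariate overlaps between L-NAME and the other groups, so those fits cannot separate the treatment from a technical difference.

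Ccnd1, the third D-type cyclin, had log2 signals of 8.81, 8.19, 8.97, 8.90 and 8.95 on control, 8.71, 9.07, 8.83 and 9.02 on Met-fed and 8.18, 8.31, 8.33 and 8.97 on L-NAME arrays. The groups overlapped, and a log2 change of -0.32 ± 0.17 (adjusted p = 0.148) did not pass the test. After median centring it was -0.74 and did (adjusted p = 0.00249). Cdk4, the partner of all D-type cyclins, had log2 signals of 8.48, 8.55, 8.71, 8.44 and 8.56 on control, 8.70, 8.51, 8.83 and 8.74 on Met-fed and 8.80, 8.66, 8.77 and 8.85 on L-NAME arrays. With control it overlapped through control replicate 3 alone, and the log2 change was 0.22 ± 0.09 (adjusted p = 0.0448). After array median centring it was -0.20 with an adjusted p of 0.107, so the direction of Cdk4 rests on the scaling. The call was also lost after quantile normalization and in 8 of 13 fits that left out 1 array, those without control replicate 1, 2, 4 or 5, Met-fed replicate 4 or L-NAME replicate 1, 3 or 4. Ccne1 and Cdk2, which act at entry to S phase, overlapped control and were not called.

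DNA replication genes moved in both directions. Of the 13 members, 3 were higher (23.1%, against 28.7% of all probe sets) and 3 lower (23.1%, against 17%). The share called was 46.2%, close to the 45.7% of all probe sets. The median log2 change was 0.23, beside 0.22 over all probe sets. Quantile normalization gave 2 higher and 3 lower, and median centring 0 higher and 4 lower. Pola1 had log2 signals of 4.77, 4.36, 4.54, 4.61 and 4.51 on control, 4.30, 4.32, 4.64 and 3.66 on Met-fed and 5.79, 5.40, 5.28 and 5.41 on L-NAME arrays. The L-NAME arrays lay above all others, and the log2 change was 0.91 ± 0.21 (adjusted p = 0.0021). Prim1, the primase subunit that lays down the RNA primer, had log2 signals of 7.13, 6.74, 6.67, 7.11 and 6.84 on control, 7.25, 6.34, 7.41 and 6.70 on Met-fed and 7.58, 7.63, 7.80 and 7.30 on L-NAME arrays. The L-NAME arrays were above every control array and overlapped the Met-fed ones, with a log2 change of 0.68 ± 0.19 (adjusted p = 0.00783). Mcm6, a subunit of the ring helicase, had log2 signals of 5.25, 4.69, 5.14, 5.28 and 4.68 on control, 5.03, 4.82, 4.56 and 4.72 on Met-fed and 5.94, 5.93, 5.55 and 6.05 on L-NAME arrays. No L-NAME array overlapped another group, and the log2 change was 0.86 ± 0.19 (adjusted p = 0.00136). After median centring none of Pola1, Prim1 and Mcm6 passed the test (changes of 0.48, 0.25 and 0.43), and after quantile normalization Prim1 and Mcm6 did.

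Rrm1, the large subunit of ribonucleotide reductase, which makes deoxynucleotides, had log2 signals of 8.78, 8.63, 8.71, 8.37 and 8.52 on control, 8.18, 8.33, 8.76 and 8.61 on Met-fed and 7.77, 7.71, 7.64 and 7.62 on L-NAME arrays. Every L-NAME array lay below every other array. The log2 change was -0.91 ± 0.12 (adjusted p = 1.03e-05), and it passed the test in both other scalings and without any single array. Mcm7, another helicase subunit, had log2 signals of 7.79, 7.98, 8.004, 7.82 and 7.59 on control, 7.95, 7.60, 7.67 and 8.01 on Met-fed and 7.53, 7.73, 7.27 and 7.42 on L-NAME arrays. The highest L-NAME array lay within the control range, and the log2 change was -0.35 ± 0.12 (adjusted p = 0.0296). Pcna, the sliding clamp, had log2 signals of 10.18, 10.18, 10.06, 10.28 and 10.18 on control, 10.19, 10.10, 10.30 and 9.89 on Met-fed and 9.95, 9.86, 9.99 and 9.97 on L-NAME arrays. All L-NAME arrays lay slightly below all control arrays, by a log2 change of -0.23 ± 0.08 (adjusted p = 0.0255). After quantile normalization the change of Pcna was -0.05 and did not pass the test, nor did it pass without control replicate 4 or L-NAME replicate 2.

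The helicase genes, whose proteins form a single ring, did not share a direction. Of the 6, Mcm6 was higher and Mcm7 lower, and Mcm2, Mcm3, Mcm4 and Mcm5 had changes from -0.18 to 0.38 that did not pass the test. Mcm4 was called lower in both other scalings, with -0.34 after quantile normalization and -0.60 after median centring, and after centring Mcm4 and Mcm7, both lower, were the helicase genes that passed. Mcm7 was lost without control replicate 2 or 3 or L-NAME replicate 3 or 4. Tyms and Tk1, which supply thymidine nucleotides, also did not pass the test.

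Both CDK inhibitors were lower by their brightest probe sets. Cdkn1a had log2 signals of 10.52, 10.56, 10.32, 10.91 and 10.95 on control, 10.23, 10.73, 10.84 and 10.52 on Met-fed and 9.31, 9.34, 9.85 and 9.63 on L-NAME arrays. The L-NAME arrays lay below all others, with a log2 change of -1.12 ± 0.15 (adjusted p = 1.39e-05), and the gene passed the test in both other scalings and without any single array. Cdkn1b had log2 signals of 10.37, 10.72, 10.48, 10.53 and 10.55 on control, 10.36, 10.59, 10.50 and 10.63 on Met-fed and 10.13, 10.26, 10.37 and 10.15 on L-NAME arrays. The L-NAME arrays lay just under the control arrays without overlap, with a log2 change of -0.30 ± 0.08 (adjusted p = 0.00581). After quantile normalization it was -0.04 and did not pass the test. For Cdkn1b another probe set disagrees, as given with the other probe sets.

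Over the 17 calls, 7 held in both other scalings and without any single array, namely Birc5, Cks2, Cdc20, Ccnd2, Ccnd3, Rrm1 and Cdkn1a. With the spike-in signal added to the model 5 members were called, 4 of them among the 17, and with the beta-actin ratio as a covariate only Ccnd2 and Ccnd3 were. As both covariates are separated by group, a call kept or lost in these fits does not tell treatment from technical difference. The exact permutation test (2-sided) gave 0.00794, the smallest p that 4 arrays against 5 allow, for 11 of the 36 members, without adjustment. That p needs groups without overlap, which 36.1% of members and 40.3% of all probe sets had, so it does not set the members apart from the array.

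Several members have more than 1 probe set, and these did not always move together. Of the 36 members, 8 had more than 1 single-gene probe set. For Cdkn1b a dimmer probe set, at a mean log2 signal of 6.16, was higher in L-NAME by a log2 change of 2.13 ± 0.25 (adjusted p = 3.43e-06), against -0.30 in the brightest. For Ccnd1 the 2 dimmer probe sets had changes of 0.32 ± 0.21 and 1.23 ± 0.24 (adjusted p = 0.234 and 0.000421), against -0.32. Dimmer probe sets were also higher for Cdk2 (0.89 ± 0.28, adjusted p = 0.0144) and Tk1 (1.32 ± 0.28, adjusted p = 0.001), where the brightest had -0.38 and 0.14. For Cdkn1a the dimmer probe set had a change of 0.34 ± 0.37, which did not pass the test. For Top2a the dimmer probe set moved as the brightest did, by 1.61 ± 0.39 (adjusted p = 0.00265). Cdc20 has 4 dimmer probe sets with changes of 2.20 ± 0.66 (adjusted p = 0.0114), 0.08 ± 0.90, -0.22 ± 0.92 and -1.28 ± 0.63, of which the first passed the test. Their mean log2 signals were 1.18, -0.43, -1.19 and 1.70 in the same order. All lay under the mean level of the highest bacterial control (1.77), so these changes are no measure of the gene. For Ccnb1 the dimmer probe set had 0.60 ± 0.28, which did not pass, and the brightest had 0.10. In Cdkn1b, Ccnd1, Cdk2 and Tk1 the reading of the gene in L-NAME hearts therefore depends on the probe set. For these genes, and for Cdc20, the direction given above is that of the brightest alone.

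L-NAME hearts were also set against Met-fed hearts, a comparison that shares the L-NAME arrays with the one above. Here 15 of 36 members (41.7%) passed the test, against 40.3% of all probe sets, with 12 higher (33.3% against 25.4%) and 3 lower (8.33% against 14.9%). The median log2 change was 0.46, beside 0.25 over all probe sets, and 12 members (33.3%) had groups without overlap, against 39.6%. Quantile normalization gave 7 higher and 4 lower, and median centring 7 and 8. Among members above the highest bacterial control on most arrays, the largest changes were those of Birc5 with 1.86 ± 0.36, Top2a with 1.74 ± 0.38 and Cks2 with 1.48 ± 0.32, at adjusted p from 0.000604 to 0.00152. Bub1b also passed (adjusted p = 0.0126), but all 4 Met-fed arrays were at or under that control, so no size is given, and the call was lost in both other scalings and without L-NAME replicate 4. Mki67 was lost without Met-fed replicate 1 or 2 or L-NAME replicate 4, and Prim1 without Met-fed replicate 2 or L-NAME replicate 3.

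Pola2 and Pola1 were both higher in L-NAME than in Met-fed hearts, by 1.37 ± 0.38 and 1.24 ± 0.22 on the log2 scale (adjusted p = 0.00944 and 0.00035). Pola2 overlapped between these groups and Pola1 did not. Cdkn1a and Rrm1 were lower, with log2 changes of -1.05 ± 0.16 and -0.78 ± 0.12 (adjusted p = 7.00e-05 and 0.000118). Of the 15 calls, 9 held in both other scalings and without any single array, namely Top2a, Birc5, Cks2, Ccnd2, Ccnd3, Pola1, Mcm6, Rrm1 and Cdkn1a. With the beta-actin ratio as a covariate 0 were called by limma, a fit with the same limit as above.

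Further cell cycle genes were read from a longer list of 166, of which 145 were measured. In Met-fed hearts 0 of 145 passed the test with limma, and 17 (11.7%) did at an unadjusted p under 0.05, against 10.7% of all probe sets. The 4 with the smallest p were Rad21, a cohesin subunit (-0.24 ± 0.06, adjusted p = 0.232), Gadd45a, a stress-induced gene of growth arrest (0.57 ± 0.14), Kif23, a kinesin of cytokinesis (-0.93 ± 0.29), and Bub1, a checkpoint kinase (-0.71 ± 0.22). None was called.

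In L-NAME hearts 54 of the 145 genes (37.2%) passed the test, under the 45.7% of all probe sets. Of the 145, 28 were higher (19.3%, against 28.7% of all probe sets) and 26 lower (17.9%, against 17%). This split was 21 to 33 after quantile normalization and 16 to 44 after median centring. By role, 14 of 41 regulators of E2F, RB and the cycle were higher (34.1%) and 7 lower (17.1%). Of 15 origin genes 4 were higher (26.7%) and 3 lower (20%), and both roles were near the shares of all probe sets. Of 66 spindle, kinetochore and cytokinesis genes 8 were higher (12.1%) and 7 lower (10.6%), under those shares in both directions. Of 23 replication fork genes 2 were higher (8.70%, against 28.7% of all probe sets) and 9 lower (39.1%, against 17%). After quantile normalization and median centring 1 was higher and 11 and 15 were lower.

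The 4 genes with the smallest p in L-NAME hearts had levels that did not overlap control. Gadd45a was higher, with log2 signals of 6.45 to 6.89 on control and 8.70 to 9.08 on L-NAME arrays and a log2 change of 2.18 ± 0.14 (adjusted p = 1.67e-08). Gmnn (geminin), which blocks relicensing of origins, was higher, with log2 signals of 4.09 to 4.81 on control and 6.35 to 6.99 on L-NAME arrays and a log2 change of 2.28 ± 0.22 (adjusted p = 4.47e-07). Cks1b, the relative of Cks2, was higher, with log2 signals of 6.88 to 7.01 on control and 8.19 to 8.75 on L-NAME arrays and a log2 change of 1.60 ± 0.16 (adjusted p = 5.36e-07). Cdkn1c (p57), the third inhibitor of the family of Cdkn1a and Cdkn1b, was lower, with log2 signals of 8.07 to 8.31 on control and 5.94 to 6.54 on L-NAME arrays and a log2 change of -1.94 ± 0.14 (adjusted p = 3.55e-08). Against Met-fed hearts 34 of the 145 were higher and 25 lower (40.7% in all, against 40.3% of all probe sets), and Cdkn1c, Gadd45a, Cks1b and Pold4, a subunit of DNA polymerase delta, had the smallest p, with changes of -1.74 ± 0.15, 1.61 ± 0.15, 1.39 ± 0.16 and -0.75 ± 0.09. All 3 inhibitors of the family were lower in L-NAME hearts by their brightest probe sets, though Cdkn1b was not after quantile normalization and its other probe set was higher.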

How the data were processed

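Total RNA of left ventricle was measured on 13 rat arrays, and the intensity values deposited by the authors are linear MAS5 signals (version not given in the sources used here) with the same 2% trimmed mean on every array. No further normalization was applied. Signals were taken to log2 and compared with limma 3.58.1 in R 4.3.3, with 1 coefficient per group, a variance that follows the signal and Benjamini-Hochberg adjustment at 0.05 over 31042 probe sets, after 57 control probe sets were left out. Errors of changes are standard errors. The main limma fit of L-NAME against control was tested on simulated data, and the other comparisons and the alternatives were not. Single genes also had exact permutation tests (2-sided). Gene names come from the platform annotation, in which 20826 probe sets have 1 symbol, 436 several and 9780 none. Promoters were read from RefSeq tables. Figures were drawn with matplotlib 3.10.9.

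Groups follow the sample labels. These do not say that each array is a separate rat, so p-values measure the spread between arrays. The members, the further lists and the tests were chosen with earlier results of these data known. Values per array are given for the members with an adjusted p under 0.05, the 3 with the smallest p in Met-fed hearts, Pola2 and the brightest of each role, and of the further genes the 4 with the smallest p per comparison are named. The alternatives were other scalings, offsets, filters, variance models, t-tests, covariates, a replicate block, the mean of all probe sets and each array left out. The number of arrays limits the precision.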

Additional observations from a re-analysis of the deposited data

Results flagged for a closer look

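In 4 of 108 sets of member values, 1 array stood apart from the others of its group, where chance gives about 1 in 20, or 5.4 sets. Met-fed replicate 1 was the lowest Met-fed array for Top2a, at a log2 signal of 2.91 against 4.19 to 4.38 on the others. The same array was the lowest for Cdk1, at 2.89 against 4.09 to 4.13. L-NAME replicate 4 was the highest L-NAME array for Cenpf, at 3.82 against 2.89 to 2.99. Control replicate 2 was the lowest control array for Ccnd1, at 8.19 against 8.81 to 8.97.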

How the results depend on the processing

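Of 1598 values of single genes under the alternatives, 1456 kept their direction and side of the threshold, 121 lost and 7 gained the call, and 14 turned direction. Members called in L-NAME against control fell from 17 to 5 with the spike-in covariate and to 2 with the beta-actin covariate, and other cell cycle genes from 54 to 15 and 2. Against Met-fed, members called fell from 15 to 0 with the beta-actin covariate. Other genes fell from 59 to 35 with the spike-in covariate, to 35 with the t-test for unequal variances and to 0 with the beta-actin covariate. The values of neither covariate overlap between L-NAME and the other groups, so the falls under them do not tell treatment and technical difference apart. The members' median change in L-NAME against control was -0.0757 after quantile normalization, -0.16 after median centring, 0.093 with offset 50, 0.13 with the median filter (fewer genes), 0.39 with the spike-in covariate, 0.069 with the beta-actin covariate and 0.40 over all probe sets of a gene. Against Met-fed it was 0.036, 0.10, 0.092, 0.10, 0.59 and 0.33 under the first 6 of these and 0.19 with offset 16. Leaving out 1 array moved it between 0.28 (without Met-fed replicate 1) and 0.56. Members near background numbered 11 with the wider limit and 1 to 2 with 1 array left out.

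Among the genes and comparisons recomputed under every alternative (60 values), those that turned were, in Met-fed hearts, Cdc20 (-0.62 over all probe sets) and Cdkn1a (0.26 with the spike-in covariate, 0.28 over all probe sets, -0.16 to 0.042 with 1 array left out). In L-NAME hearts they were Cdk4 (-0.20, median centring), Cdkn1b and Ccnd1 (0.92 and 0.41 over all probe sets), Ube2c, Cenpf and Pola2 (-0.52, -0.31 and -1.62 with the beta-actin covariate) and Cdk1 (0.39 with the spike-in covariate, -0.56 to 0.066 with 1 array left out). Against Met-fed they were Cdkn1b (0.65 over all probe sets) and Pola2 (-0.85 with the beta-actin covariate). Over all 36 members, quantile normalization turned 8 changes and median centring 9 in L-NAME against control (none called after it), and 6 and 4 against Met-fed, where Cdk4 was then called lower (-0.29, adjusted p = 0.0343 by limma). In Met-fed against control 3 and 2 turned, none called. The cause was not tested.

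Arrays of the same replicate number had deviations that correlated from -0.21 to 0.24. These values do not settle whether the numbers pair the arrays, and the labels do not say. With the number as a replicate block 15 members were called in L-NAME against control, 16 against Met-fed and 0 in Met-fed against control. Cenpf passed the test there and without control replicate 5, with a change of 1.63 in both. By signal over background, 1 of 36 members was near background in some group, or 11 with the wider limit.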
